A study of Mus musculus with 36 samples.

Results

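The RNA for the proteasome and for its transcription factor Nfe2l1 was followed across 5 skeletal muscles of mice transgenic for alpha tropomyosin slow, a model of nemaline myopathy, and of wild-type mice. The set held 41 of the 8251 mouse genes that the MG_U74Av2 array names singly. These were all genes with a symbol made of Psma, Psmb, Psmc, Psmd or Psme and a number, and Nfe2l1, and each gene was read from its brightest probe set, by mean signal. They comprised 7 alpha and 7 constitutive beta subunits of the core, 6 ATPases and 14 other genes of the cap (Psmd), 3 activators, the 3 immune subunits Psmb8, Psmb9 and Psmb10, and Nfe2l1. Classes follow the gene symbol alone. The 14 Psmd genes are all counted as subunits here, although Psmd5, for one, is a chaperone of cap assembly. Psme1, which interferon induces, is counted among the constitutive subunits. Psme2 was not a member, because its probe sets carry the names of several genes.

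The proteasome is the barrel-shaped protease that degrades proteins tagged with ubiquitin. Its core is built of alpha rings, which gate the entrance, and beta rings, which hold the active sites, and a cap of ATPases and other subunits binds, unfolds and feeds in the substrate. In cells exposed to interferon the active beta subunits Psmb5, Psmb6 and Psmb7 are exchanged for Psmb8, Psmb9 and Psmb10, which favours the cutting of peptides for antigen presentation. Nfe2l1 (also NRF1) is a membrane-bound factor that is itself a substrate of the proteasome, and it induces constitutive subunit genes through antioxidant response elements when proteasome capacity falls short. In skeletal muscle the proteasome carries much of the turnover of sarcomeric proteins.

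Transgenic and wild-type mice were sampled at 10 and 7 months of age from the diaphragm and from 4 limb muscles, the tibialis anterior, gastrocnemius, plantaris and extensor digitorum longus. Each of the 36 arrays, 18 per genotype, carried total RNA pooled from 3 to 5 mice. Plantaris and extensor digitorum longus had 3 arrays per genotype and the other muscles 4. The sources used here do not give the strain or the promoter of the transgene. No label states whether replicates were separate pools of mice, so p-values rest on an array-to-array spread that may be technical. Values are signal intensities scaled to the same mean on every array, and changes are differences of log2(signal + 50) ± SE from a limma fit over all 9322 probe sets tested, with p-values adjusted over all of them by the Benjamini-Hochberg method and a threshold of 0.05.

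All 36 arrays carried skeletal muscle RNA. The summed signal of 15 tested markers of striated muscle was 131000 to 355000 on the diaphragm arrays and 227000 to 450000 on the limb arrays. Each of the 15 reached a signal of 100 on at least 1 array of every muscle and genotype. The 8 diaphragm arrays also carried liver RNA. The summed signal of 17 hepatocyte markers was 8760 to 160000 (median 19600) in transgenic diaphragm and 59600 to 214000 (median 194000) in wild-type diaphragm, against 1430 to 5160 on the limb arrays of both genotypes. The 17 include Trh, which was not on the list of markers and was taken up through a synonym of a listed name. It enters every sum, count and mean level of these markers. In limb muscle Fabp1, Ahsg and Hpx stayed under 100 on every array. All 20 arrays numbered replicate 1 had a filled scan record and all 16 numbered replicate 2 an empty one, so that the replicate number and the record are the same split. A Gapdh 3′ to 5′ ratio of 3.32 and 3.69 set 2 limb arrays apart from the others, which had at most 1.8. In bulk muscle RNA, fewer cells of a type and less RNA per cell cannot be told apart.

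Promoters were read for 35 of the 41 genes, from RefSeq windows on GRCm38.p6 that run from 250 bases before to 50 bases after the start of transcription. The antioxidant response element was searched for as TGACNNNGC or TGAGNNNGC on both strands. It was present for 15 of 31 constitutive subunits (48.4%), for 0 of 3 immune subunits and for Nfe2l1 itself, and for 30.8% of all 27025 genes with such a window. Of the 8 genes that rose in transgenic diaphragm 5 had a window, and 4 of these held a match, Psmd4 being the one without. The 250 bases before the start are shown for these 4 genes, with each match in capitals. Nfe2l1 has 5 annotated starts, of which 4 had a match, and Psmc2 has 2, of which 1 had a match. The most upstream start with a match is printed.
Nfe2l1, chr11:96829969-96830218, minus strand: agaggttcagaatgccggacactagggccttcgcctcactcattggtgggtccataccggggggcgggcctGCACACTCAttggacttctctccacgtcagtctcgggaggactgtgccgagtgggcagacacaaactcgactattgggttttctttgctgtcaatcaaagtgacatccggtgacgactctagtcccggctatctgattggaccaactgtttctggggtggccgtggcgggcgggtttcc
Psmc2, chr5:21786497-21786746, plus strand: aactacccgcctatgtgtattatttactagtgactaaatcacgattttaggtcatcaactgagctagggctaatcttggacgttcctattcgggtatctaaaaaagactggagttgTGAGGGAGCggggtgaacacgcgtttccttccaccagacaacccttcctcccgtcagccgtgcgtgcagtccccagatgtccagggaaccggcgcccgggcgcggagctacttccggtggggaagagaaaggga
Psmc6, chr14:45329574-45329823, plus strand: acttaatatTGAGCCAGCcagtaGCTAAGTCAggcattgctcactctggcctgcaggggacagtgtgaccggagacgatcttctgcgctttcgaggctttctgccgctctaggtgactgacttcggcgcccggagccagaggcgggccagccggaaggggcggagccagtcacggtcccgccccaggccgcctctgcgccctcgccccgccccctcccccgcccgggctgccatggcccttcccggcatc
Psmd12, chr11:107479278-107479527, plus strand: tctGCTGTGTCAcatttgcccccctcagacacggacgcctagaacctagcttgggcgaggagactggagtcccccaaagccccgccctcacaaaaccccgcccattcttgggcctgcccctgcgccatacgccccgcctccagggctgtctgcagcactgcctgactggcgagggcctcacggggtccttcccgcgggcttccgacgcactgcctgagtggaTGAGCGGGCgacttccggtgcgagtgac
In these windows the match begins 179 bases before the start of Nfe2l1 and 134 bases before that of Psmc2. Psmc6 and Psmd12 hold a pair of matches each, which begin 241 and 227 bases before the start of Psmc6 and 247 and 28 bases before that of Psmd12. A match describes the letters and not a bound site.

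Among the immune subunits only Psmb8 held a match to either interferon motif searched on both strands, the interferon response element, a pair of GAAA with 2 free bases between, and TTCNNNGAA for STAT factors. The TTCNNNGAA match is shown in capitals, 97 bases before the start, and occurred for 9.55% of all genes and 1 of 31 constitutive subunits (3.23%).
Psmb8, chr17:34197945-34198194, plus strand: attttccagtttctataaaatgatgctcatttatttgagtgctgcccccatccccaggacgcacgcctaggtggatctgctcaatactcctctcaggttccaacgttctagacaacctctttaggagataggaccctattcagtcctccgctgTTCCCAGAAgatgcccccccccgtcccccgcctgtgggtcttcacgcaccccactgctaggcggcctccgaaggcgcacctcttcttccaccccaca
The response element was found for 0 of 3 immune subunits, 4 of 31 constitutive subunits (12.9%) and 3.99% of all genes. The CCAAT box was about as frequent for constitutive subunits, 12 of 31 (38.7%), as for all genes (41.1%), and Nfe2l1 and Psmb9 held one too.

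In the diaphragm, 8 of the 40 tested genes rose in transgenic mice and 0 fell, where 1.19% of all probe sets rose and 2.23% fell. The 8 were Nfe2l1, the core beta subunits Psmb1 and Psmb7, the cap ATPases Psmc2 and Psmc6, and Psmd4, Psmd7 and Psmd12 of the cap. Of the 36 constitutive subunits tested (core, cap and activators) 33 had a positive change, with a median of 0.49 against 0 for all probe sets, while all 3 immune subunits had a negative one. Psmd2, a scaffold subunit of the cap, was not tested because its mean signal was 50.9.

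Nfe2l1 had signals of 6329 and 7828 at 10 months and 7336 and 5271 at 7 months in transgenic diaphragm, against 3560 and 3596 at 10 months and 2501 and 4302 at 7 months in wild-type diaphragm. Every transgenic array lay above every wild-type one. The change was 0.94 ± 0.15 (1.92-fold, adjusted p = 0.0012). A second, dimmer probe set of Nfe2l1 had a change of 0.85 that missed the threshold (adjusted p = 0.73).

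Psmb1, a beta-ring subunit without an active site, had 4835 and 4907 at 10 months and 3981 and 3595 at 7 months in transgenic diaphragm, against 2996 and 1823 at 10 months and 1151 and 1916 at 7 months in wild-type diaphragm. The groups did not overlap, and of all members this was the largest change, 1.18 ± 0.19 (2.27-fold, adjusted p = 0.0012). A second Psmb1 probe set gave 0.51 (adjusted p = 0.62), so the size of the Psmb1 change rests on the brighter one. The change in Psmb1 and that in Nfe2l1 passed the threshold without any one of the 36 arrays.

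Psmb7, the beta subunit with trypsin-like activity, had 3262 and 2863 at 10 months and 3262 and 2555 at 7 months in transgenic diaphragm. In wild-type diaphragm it had 2749 and 1548 at 10 months and 1824 and 1560 at 7 months. The groups overlapped through a single wild-type array, replicate 1 at 10 months. Its change was 0.66 ± 0.18 (adjusted p = 0.039). The other core subunits had positive changes of 0.25 to 0.65 that did not pass.

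Among the cap ATPases, Psmc6 had 6679 and 6065 at 10 months and 4732 and 5353 at 7 months in transgenic diaphragm, against 4311 and 3987 at 10 months and 2936 and 3213 at 7 months in wild-type diaphragm. These groups did not overlap, and the change was 0.66 ± 0.16 (adjusted p = 0.019). Psmc2 had 2957 and 2641 at 10 months and 3230 and 2221 at 7 months in transgenic diaphragm, against 2241 and 1727 at 10 months and 1602 and 1834 at 7 months in wild-type diaphragm, a change of 0.56 ± 0.14 (adjusted p = 0.024). The lowest transgenic Psmc2 value lay just under the highest wild-type one. Psmc1, Psmc3 and Psmc5 had 0.56, 0.50 and 0.21 without passing, though a dimmer Psmc3 probe set passed (0.83, adjusted p = 0.04). Psmc4, which reached a signal of 100 on 11 arrays, had -0.05.

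Psmd4 is a cap subunit that binds ubiquitin chains. It had 3307 and 3645 at 10 months and 3567 and 2600 at 7 months in transgenic diaphragm, against 2004 and 2041 at 10 months and 1596 and 2063 at 7 months in wild-type diaphragm. The groups lay apart, with a change of 0.75 ± 0.16 (adjusted p = 0.0067). Psmd12, a subunit of the lid of the cap, had 1895 and 1274 at 10 months and 1168 and 1718 at 7 months in transgenic diaphragm, against 1085 and 470.1 at 10 months and 681.8 and 825.4 at 7 months in wild-type diaphragm. It too was separated, by 0.97 ± 0.28 (adjusted p = 0.047), but this call was lost without any one of 25 of the 36 arrays. Psmd7, the partner of the deubiquitinase Psmd14, had 4103 and 2687 at 10 months and 3055 and 3175 at 7 months in transgenic diaphragm, against 3094 and 1480 at 10 months and 1699 and 1843 at 7 months in wild-type diaphragm. Here wild-type replicate 1 at 10 months again lay among the transgenic arrays, and the change was 0.71 ± 0.17 (adjusted p = 0.017).

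**Figure D1:**
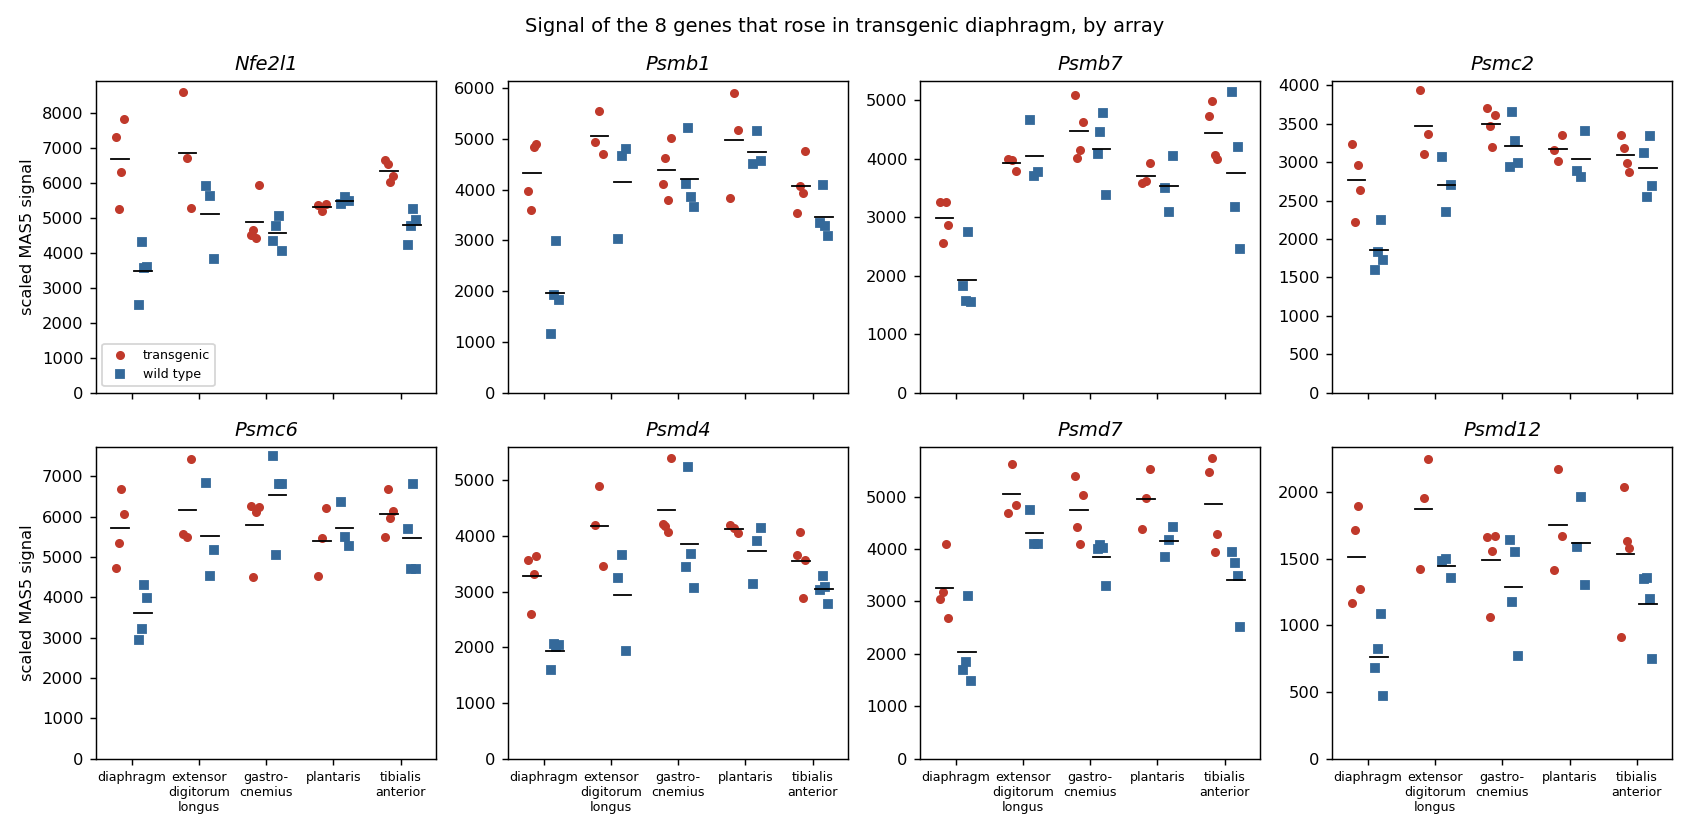
Scaled MAS5 signal (y axis, linear, from 0) of the 8 genes that rose in transgenic diaphragm, for each array of the 5 muscles, with transgenic arrays as circles left of the wild-type squares and bars at group means. Wild-type diaphragm holds the lowest group mean in each panel, and the distance between the genotype means is widest there for all of them but Psmd7.

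In total 8 genes had all 4 transgenic diaphragm arrays above all 4 wild-type ones, as did 3.03% of all probe sets. They were Nfe2l1, Psmb1, Psmc6, Psmd4 and Psmd12, and Psma3, Psma5 and Psme4, whose changes of 0.54, 0.52 and 0.54 missed the threshold (adjusted p = 0.085, 0.084 and 0.17). Psmd6, a lid subunit, had 0.72 and also missed it narrowly (adjusted p = 0.053). Psmd11, a lid subunit that joins cap and core, had 0.70 at an adjusted p of 0.36, while a dimmer Psmd11 probe set rose by 0.71 (adjusted p = 0.037). Among 8 further tested probe sets of the members 6 had the sign of the brightest one, and the second Psmb5 probe set, at -0.23, went against its 0.56.

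The rise did not extend over every member. Psme1 (an activator subunit induced by interferon), Psmd5 (a chaperone of cap assembly) and Psmc4 had negative changes of -0.12, -0.24 and -0.05, none past the threshold. The immune subunits Psmb8, Psmb9 and Psmb10 had -0.28 ± 0.29, -0.51 ± 0.45 and -0.23 ± 0.19 (adjusted p = 0.80, 0.74 and 0.71). Psmb8 had 524.8 and 900.2 at 10 months and 517.1 and 1006 at 7 months in transgenic diaphragm, against 622.4 and 1061 at 10 months and 1163 and 724.4 at 7 months in wild-type diaphragm. These groups overlapped.

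Liver RNA differed between the same arrays. Of the 17 hepatocyte markers (Trh included, at -0.53 and not passing) 13 fell in transgenic diaphragm, with a median of -2.79. Their mean log2 level was 8.49, 8.42 and 9.71 on 3 transgenic arrays and 12.4 on the other, 7 months replicate 2, against 12.94, 12.49, 10.77 and 12.75 on the wild-type arrays. On transgenic replicate 2 at 7 months the hepatocyte level was within the wild-type range. There 29 of 36 constitutive subunits lay above the wild-type diaphragm mean, against 30 to 34 on the other transgenic arrays. On wild-type replicate 1 at 10 months, the wild-type array with the lowest hepatocyte level, 30 of 36 did, and on the other wild-type arrays 7 to 16. Each wild-type array is itself part of that mean. The median difference from it was 0.29 on transgenic replicate 2 at 7 months and 0.37 to 0.64 on the other transgenic arrays. With the mean hepatocyte level of each array as a covariate the constitutive median in diaphragm was 0.14, and 0 of 40 members and 1 of all probe sets passed. Nfe2l1 and Psmb1 then had 0.70 and 0.95. Skeletal muscle markers had a median of 0.37 in the same comparison with 0 of 15 past the threshold, and macrophage markers -0.23 with 0 of 16. Beyond these values their part in the result was not tested.

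**Figure D2:**
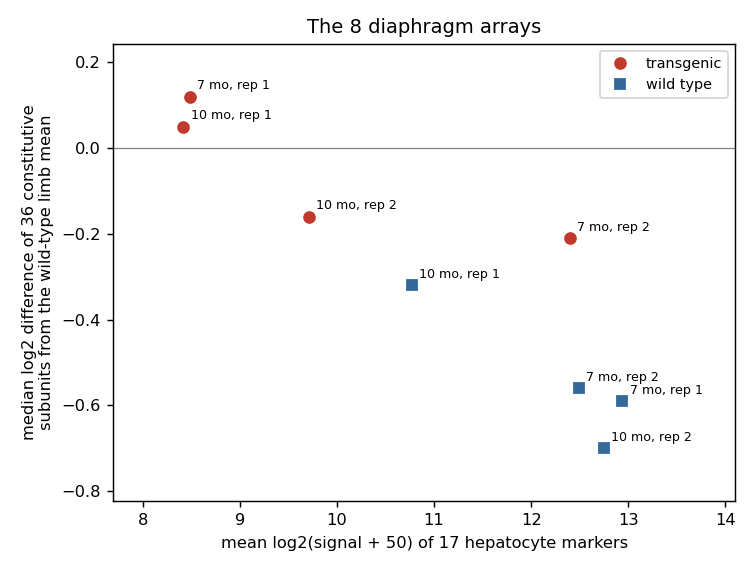
Each of the 8 diaphragm arrays by the mean log2(signal + 50) of 17 hepatocyte markers (x axis) and by the median log2 difference of its 36 constitutive subunits from the wild-type limb mean (y axis). Transgenic arrays (circles) lie between -0.21 and 0.12 and wild-type arrays (squares) between -0.70 and -0.32; transgenic replicate 2 at 7 months combines a hepatocyte level of 12.4 with -0.21.

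The count of 8 depended on single arrays. It was 2 without transgenic replicate 1 at 7 months, 2 without wild-type replicate 1 at 7 months, 3 without transgenic replicate 1 at 10 months and 3 without wild-type replicate 2 at 10 months, while the constitutive median stayed between 0.40 and 0.54 whichever array was left out. With the replicate number as a block 14 members rose in transgenic diaphragm. Within the replicate 1 arrays alone 3 passed, with a constitutive median of 0.54, and within the replicate 2 arrays 0 passed, with a median of 0.42. Split by age, transgenic minus wild-type diaphragm gave a constitutive median of 0.48 at 10 months (31 of 36 positive) and 0.51 at 7 months (33 of 36), with 0 members past the threshold at either age and 11 at an unadjusted p under 0.05 at each.

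In the limb muscles no change passed the threshold. In extensor digitorum longus, in gastrocnemius, in plantaris and in tibialis anterior 0 of 40 members passed the threshold, where 0.0107%, 0%, 0% and 0.15% of all probe sets did, and 3, 1, 0 and 2 members had an unadjusted p under 0.05. The constitutive medians were 0.18, 0.10, 0.06 and 0.21, with 27, 28, 25 and 32 of 36 subunits positive. Over the 28 limb arrays alone, a fit added after the data were seen, the average constitutive change had a median of 0.13 with 30 of 36 positive, against -0.03 for all probe sets. In that fit 0 members passed the threshold and 10 had an unadjusted p under 0.05, among 31 and 1108 of all probe sets. Psmd7 came nearest among the genes above, at 0.32 ± 0.07 (adjusted p = 0.062), with Psmb5 at 0.28, Psmd4 at 0.28, Nfe2l1 at 0.22 and Psmb1 at 0.16.

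In tibialis anterior the signal of Nfe2l1 was 6025 to 6673 (median 6377) in transgenic mice and 4238 to 5258 (median 4855) in wild-type mice, and the groups of 4 arrays lay apart. In extensor digitorum longus it was 5298, 6709 and 8620 in transgenic mice and 3822, 5645 and 5914 in wild-type mice, with overlap. Gastrocnemius had 4427 to 5959 (median 4597) in transgenic and 4062 to 5056 (median 4569) in wild-type mice. In plantaris the order turned, with 5189, 5366 and 5405 in transgenic and 5413, 5480 and 5610 in wild-type mice. Its log2 changes in these muscles were 0.41, 0.42, 0.09 and -0.05, none past the threshold (adjusted p = 0.65 to 1).

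Averaged over the 5 muscles with equal weight, 4 of 40 members rose, Nfe2l1, Psmb1, Psmd4 and Psmd7, and 0 fell, where 0.858% of all probe sets rose and 0.311% fell. The constitutive median was 0.21 against -0.03 for all probe sets. Nfe2l1 changed by 0.36 ± 0.07 (1.29-fold, adjusted p = 0.0062). This average combined a diaphragm change of 0.94 with limb changes of -0.05 to 0.42. The average without the diaphragm arrays is that of the 28 limb arrays above, where 0 members passed. The 4 calls were also lost with a random block for arrays that may share a pool (estimated correlation 0.28), with adjusted p of 0.28, 0.50, 0.24 and 0.28 for Nfe2l1, Psmb1, Psmd4 and Psmd7, and with the hepatocyte covariate. With the replicate number as a block 11 members rose.

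**Figure D3:**
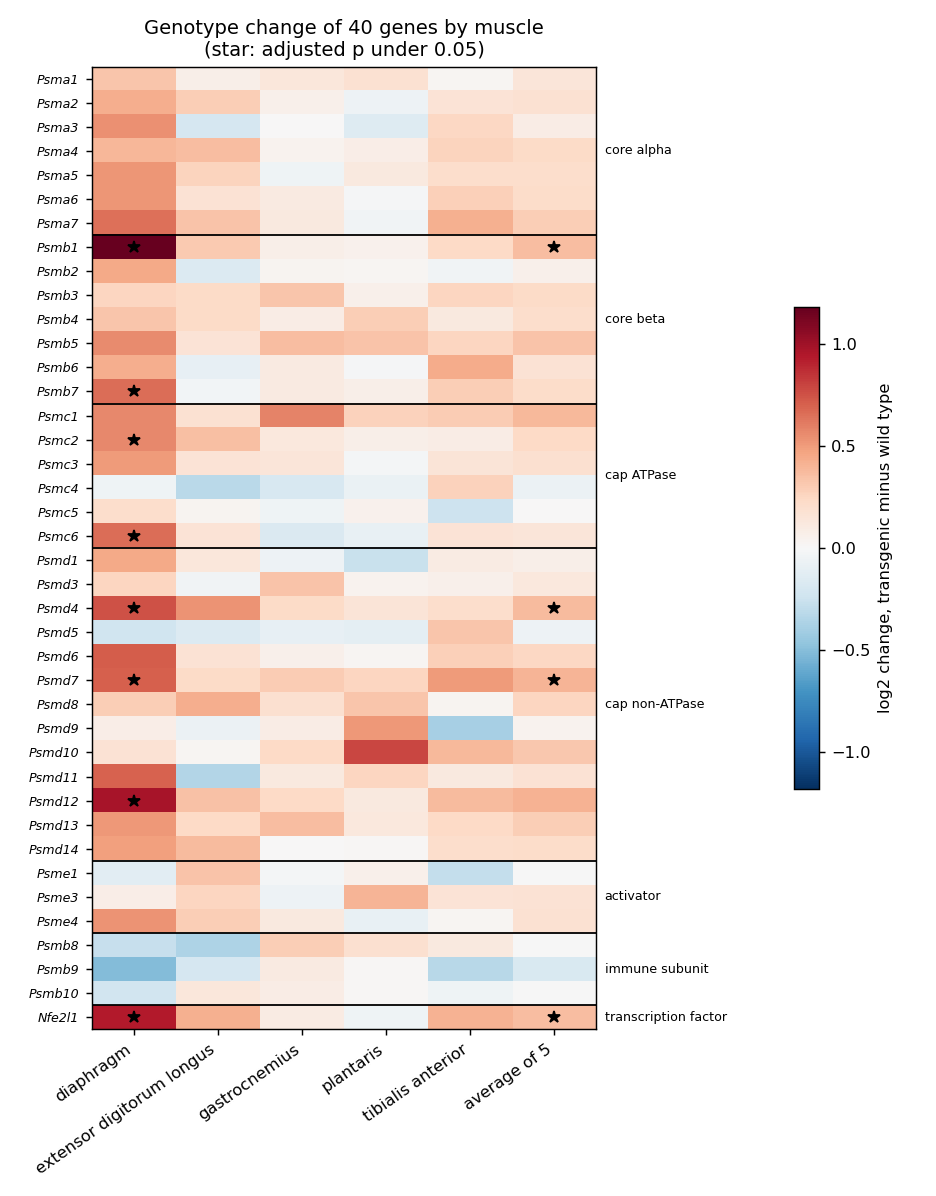
Log2 change, transgenic minus wild type, of the 40 tested genes (rows, grouped by class) in each muscle and on average (columns), with red for higher in transgenic mice and stars for an adjusted p under 0.05. Stars stand on 8 genes in the diaphragm column, on 4 in the average and on none in the limb columns.

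The difference between diaphragm and limb muscles in the genotype effect was tested directly. It passed for Psmb1, by 1.02 ± 0.21 (adjusted p = 0.04), and for Nfe2l1, by 0.72 ± 0.17 (adjusted p = 0.048), so that 2 of 40 members were called in a comparison in which 0.0965% of all probe sets were called in that direction. For the other 6 genes that rose in diaphragm it did not pass, so their effect is not shown to differ between diaphragm and limb. The calls were at the edge of the threshold. They rested on the brighter probe sets, as the second ones of Psmb1 and Nfe2l1 had 0.24 and 0.67 without passing. Psmb1 lost its call without any one of 21 of the 36 arrays and Nfe2l1 without any one of 32, and the count was 0 without transgenic diaphragm replicate 1 at 7 months, without either transgenic replicate at 10 months, and without wild-type replicate 1 at 7 months or replicate 2 at 10 months. The count was also 0 with the scan day as a block, within the replicate 1 or the replicate 2 arrays and with the hepatocyte covariate. It was 0 too with a pseudocount of 16, with 20 group means, with the mean over a gene's probe sets and without the 2 arrays of high Gapdh ratio. In the scan day block the 16 arrays with an empty record, which give no day, formed a single level beside 9 days. An F test for any difference of the genotype effect among the 5 muscles called 0 of 40 members and 0.0322% of all probe sets, and 4 members had an unadjusted p under 0.05 in it, as did 374 of all probe sets.

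In wild-type mice RNA for many constitutive subunits was lower in diaphragm than in limb muscle, at the 7-month level of the fit. All fitted differences between diaphragm and limb muscle within a genotype are taken at this level, as the fit holds an age effect for each muscle. The signals set beside them cover both ages. Of 40 members 20 were lower and 2 higher, where 8.88% of all probe sets were lower and 8.49% higher. The lower ones were 19 constitutive subunits and Nfe2l1, and the higher ones the immune subunits Psmb8 and Psmb10. The constitutive median was -0.59 against -0.12 for all probe sets. By class, 2 of 7 alpha subunits, 4 of 7 beta subunits, 5 of 6 ATPases, 7 of 13 other cap subunits and 1 of 3 activators were lower.

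The largest differences were those of Psmd11 (-1.40 ± 0.32), Psmb1 (-1.37 ± 0.18), Psme4, the activator PA200 (-1.24 ± 0.19), Psmd6 (-1.17 ± 0.20), Psmb7 (-1.14 ± 0.18), Psmd7 (-1.13 ± 0.17), Psmd4 (-0.94 ± 0.15) and Psmd1, a scaffold of the cap base (-0.93 ± 0.19), with adjusted p of 2.2e-06 to 0.0019. Psme4 had 1300 and 925.5 at 10 months and 1037 and 832.3 at 7 months in wild-type diaphragm, against 1719 to 3016 over the 14 wild-type limb arrays. The diaphragm arrays were all below the limb arrays for Psme4. Psmb1, Psmc2, Psmc6 and Psmd6 were separated in the same way, so that 5 members were, as were 2.93% of all probe sets.

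The wild-type diaphragm values of Nfe2l1, 2501 to 4302 (median 3578), partly overlapped those of gastrocnemius, extensor digitorum longus and tibialis anterior and lay below those of plantaris. The difference from limb muscle was -0.63 ± 0.15 (adjusted p = 0.0025). The second Nfe2l1 probe set, at -0.04, and the second Psmb1 probe set, at -0.15, did not show the difference of the brighter ones. Dimmer probe sets of Psmc3 (-1.05, adjusted p = 0.001) and Psmd11 (-0.67, adjusted p = 0.012) did, and 7 of the 8 further probe sets had the sign of the brightest one.

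The immune subunits ran the other way. Psmb10 had 813.3 and 918.3 at 10 months and 967.3 and 860.3 at 7 months in wild-type diaphragm, all above the limb arrays, whose highest value was 703.8. It was the 1 member so placed, where 4.45% of all probe sets were. Its difference was 0.70 ± 0.18 (adjusted p = 0.007). Psmb8 had 0.91 ± 0.29 (adjusted p = 0.026), with 622.4 to 1163 in wild-type diaphragm and 323.4 to 850.8 in wild-type limb muscle, so that the groups overlapped. Psmb9 had 1.20 ± 0.44 and did not pass (adjusted p = 0.058); its signal reached 100 on 31 of the 36 arrays. Psme1, which interferon also induces, had 0.35 ± 0.22 (adjusted p = 0.32). Of 19 genes of antigen presentation and interferon response 8 were higher in wild-type diaphragm and 0 lower, with a median of 0.77. Of all probe sets 8.49% were higher and 8.88% lower. The 4 largest were Gbp2, an interferon-induced GTPase (1.74), H2-D1 (1.57) of class I, the ubiquitin-like Isg15 (1.32) and H2-K1 (1.29) of class I.

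Markers of other cells moved with these differences. In wild-type diaphragm against limb muscle 16 of 17 hepatocyte markers were higher (median 5.90), 8 of 16 macrophage markers were higher (median 0.70) with 0 lower, and 13 of 15 skeletal muscle markers were lower (median -0.97). The summed macrophage signal was 10500 to 14500 in wild-type diaphragm and 4700 to 9340 in wild-type limb muscle, and the summed muscle signal was 131000 to 221000 in wild-type diaphragm and 255000 to 450000 in wild-type limb muscle. Adgre1, the macrophage F4/80 antigen, stayed under 100 on every array of wild-type extensor digitorum longus, gastrocnemius and tibialis anterior. The mean log2 hepatocyte level was 6.64 to 7.59 on limb arrays and 8.42 to 12.94 on diaphragm arrays. As a covariate it thus separates the same groups as the comparison, and the fit extrapolates between them. In that fit 0 members passed, with a constitutive median of 0.13. Psmb8 had -0.80 ± 0.66, against 0.91 ± 0.29 without the covariate. On wild-type replicate 1 at 10 months, with the lowest hepatocyte level of the 4, the constitutive median difference from limb muscle was -0.32, against -0.70 to -0.56 on the other wild-type arrays. In the same comparison 0 of 7 lymphocyte, 1 of 10 endothelial and 2 of 3 erythroid markers were higher and 0 lower. Of all probe sets 8.49% were higher and 8.88% lower in it. By genotype in diaphragm 0 markers of these 3 lists passed. The part of these cells in the result beyond these values was not tested.

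Without wild-type replicate 1 at 7 months 12 members passed in place of 22, with a constitutive median of -0.55. An F test over all 5 wild-type muscles, also at the 7-month level, called 14 of 40 members, 12 of them constitutive subunits, together with Nfe2l1 and Psmb10, and 11.4% of all probe sets. It called 7 without wild-type diaphragm replicate 1 at 7 months and 9 without replicate 2 at 7 months.

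Diaphragm was set against limb muscle in transgenic mice too, again at the 7-month level, in a comparison added after the data were seen. Of 40 members 3 were lower in transgenic diaphragm than in transgenic limb muscle and 0 higher, where 2.13% of all probe sets were lower and 4.27% higher. They were Psme4 (-0.79 ± 0.19, adjusted p = 0.0084), Psmd7 (-0.74 ± 0.17, adjusted p = 0.0047) and Psmb7 (-0.59 ± 0.18, adjusted p = 0.04). The constitutive median was -0.25 in transgenic mice and -0.59 in wild-type mice, the immune median 0.58 in transgenic and 0.91 in wild-type mice, and Nfe2l1 had 0.09 ± 0.15 in transgenic and -0.63 ± 0.15 in wild-type mice. The wild-type difference shares its diaphragm arrays with the genotype comparison in diaphragm, so the values are set side by side and are not separate evidence. The difference of these 2 differences is the test above, which passed for Psmb1 and Nfe2l1 alone. For Psmb7 and Psme4 all 4 transgenic diaphragm arrays lay below all 14 transgenic limb arrays, as for 1.47% of probe sets. For 0 members they lay above, as for 2% of probe sets. Leaving out transgenic diaphragm replicate 2 at 7 months gave 1 call. With the replicate number as a block 5 members were lower. The hepatocyte covariate separates diaphragm from limb arrays here too, so that its fit extrapolates between them. With it 0 members passed and the constitutive median was 0.14. Of the markers, 16 of 17 hepatocyte and 4 of 16 macrophage markers were higher in transgenic diaphragm than in limb muscle and 6 of 15 skeletal muscle markers were lower.

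**Figure D4:**
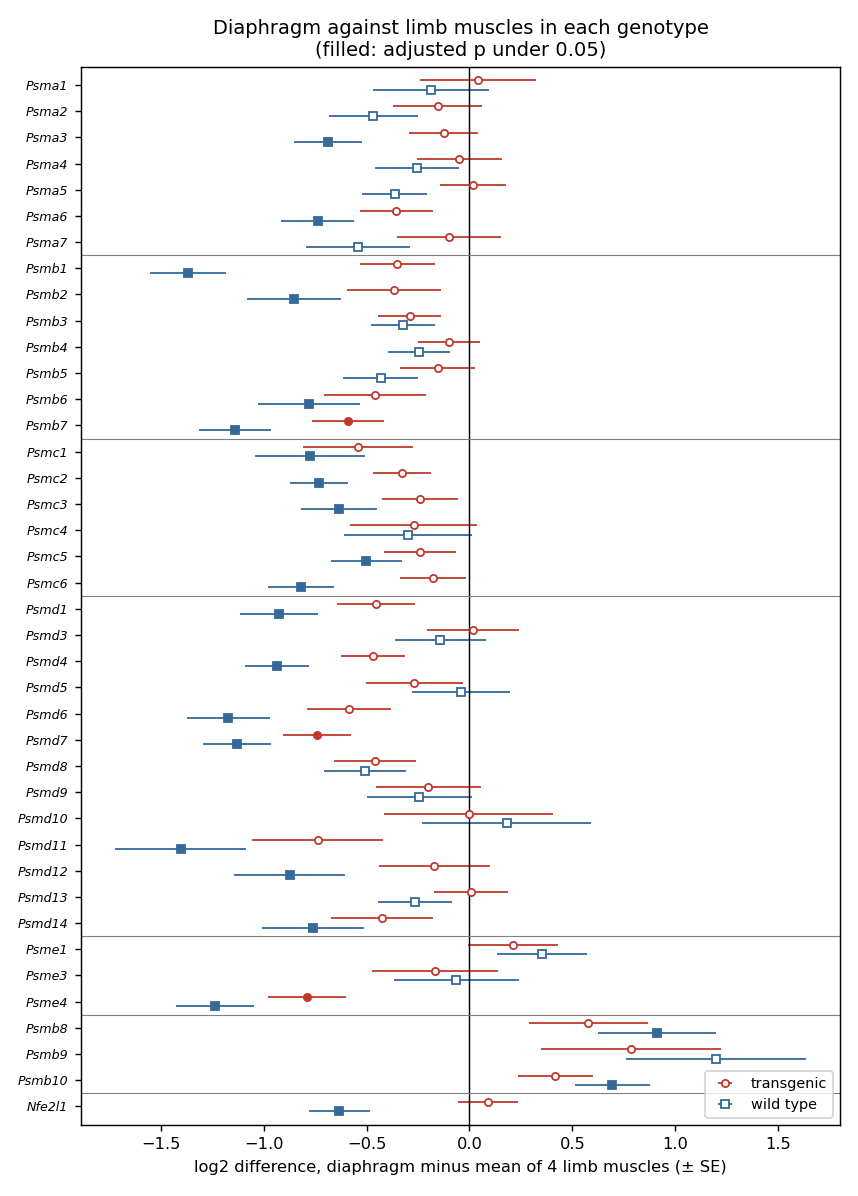
Log2 difference, diaphragm minus the mean of 4 limb muscles, ± SE for the 40 tested genes in transgenic (red circles) and wild-type mice (blue squares), filled where the adjusted p is under 0.05. Most wild-type points of core and cap genes lie further left of 0 than the transgenic ones, and the immune subunits lie right of 0 in both genotypes.

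Each immune subunit was also set against the constitutive subunit whose place it takes, as a log2 difference within each array. Signals of different probe sets have no common scale, so only shifts of this difference between groups are read, as a description with no test. For Psmb10 and Psmb7 the difference was -2.42 to -1.55 (median -1.85) in transgenic diaphragm and -1.70 to -0.72 (median -0.85) in wild-type diaphragm. In limb muscle its median was -2.90 in transgenic and -2.76 in wild-type mice. Psmb9 and Psmb6 had medians of -2.45 in transgenic and -1.26 in wild-type diaphragm, and -3.35 and -3.00 in transgenic and wild-type limb muscle. Psmb8 and Psmb5 had -1.86 and -1.03 in diaphragm and -2.50 and -2.53 in limb muscle, in the same order of genotypes. The diaphragm arrays of the genotypes overlapped in every pair. Psmb9 and Psmb6 ranged from -3.38 to -1.3 in transgenic and -2.32 to -0.98 in wild-type diaphragm. Psmb8 and Psmb5 ranged from -2.65 to -0.91 in transgenic and -1.53 to -0.34 in wild-type diaphragm. By the medians alone, each pair was shifted most towards the immune subunit in wild-type diaphragm and less so in transgenic diaphragm. The medians of limb muscle were lower in both genotypes. Hepatocyte markers, whose sums are given above, had the same order of groups.

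**Figure D5:**
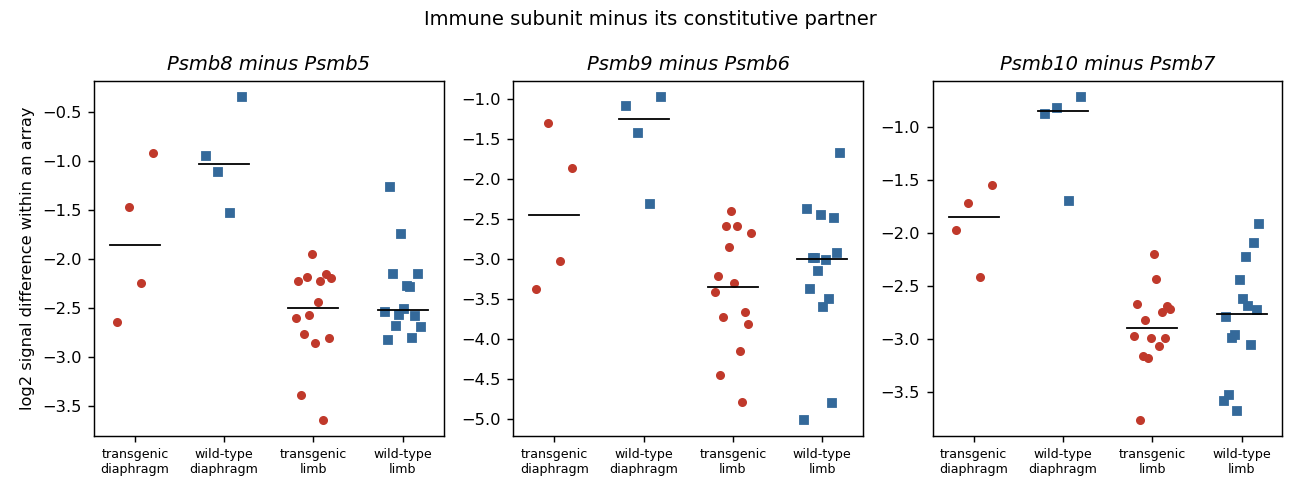
Log2 signal difference within an array, immune subunit minus constitutive partner, for Psmb8 and Psmb5, Psmb9 and Psmb6, and Psmb10 and Psmb7 (panels), with 1 point per array and bars at group medians for transgenic and wild-type diaphragm (4 arrays each) and limb muscle (14 each). Wild-type diaphragm has the highest median in all 3 panels, followed by transgenic diaphragm.

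Psmb5, which carries the chymotrypsin-like activity, had 2679 and 1737 at 10 months and 3498 and 2862 at 7 months in transgenic diaphragm, against 1891 and 1361 at 10 months and 2293 and 1623 at 7 months in wild-type diaphragm. The groups overlapped and the change of 0.56 ± 0.19 did not pass (adjusted p = 0.12). Psmb6, with the caspase-like activity, had 2002 and 1734 at 10 months and 2022 and 1349 at 7 months in transgenic diaphragm, against 1667 and 1190 at 10 months and 1304 and 1071 at 7 months in wild-type diaphragm. Its 0.43 ± 0.25 did not pass either (adjusted p = 0.55). In limb muscle Psmb5 averaged 3380 ± 364 in transgenic and 2650 ± 558 in wild-type gastrocnemius (SD, n = 4 each), with overlap. In plantaris it averaged 3100 ± 557 in transgenic and 2420 ± 127 in wild-type mice (SD, n = 3 each), without overlap. The changes there, 0.37 and 0.34, did not pass.

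Genes that work with the proteasome were followed by lists. Of all probe sets 1.19% rose and 2.23% fell in transgenic against wild-type diaphragm. In wild-type diaphragm against limb muscle 8.49% were higher and 8.88% lower. Of 10 ubiquitin and ubiquitin-conjugating genes 0 passed in transgenic against wild-type diaphragm (median 0.29), and 4 were lower in wild-type diaphragm than in wild-type limb muscle, the conjugating enzymes Ube2d3 (-1.01), Ube2b (-0.96), Ube2g1 (-0.92) and Ube2r2 (-0.78). Of 18 proteasome partners 0 passed by genotype (median 0.29 in diaphragm), and 5 were lower in wild-type diaphragm than in limb muscle. Among these were Zfand5 (-1.08), which activates the proteasome in atrophying muscle, the proteasome scaffold Ecpas (-1.07), the ubiquitin receptor Sqstm1 (-0.75) and the cap subunit Sem1 (-0.67). The 9 genes of p97 and degradation at the endoplasmic reticulum and the 12 relatives and regulators of Nfe2l1 had 0 calls in these comparisons.

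Of 17 other known targets of Nfe2l1 or its relative Nfe2l2, 0 rose in transgenic diaphragm and 1 fell, the glutathione transferase Gsta3 (-1.54 ± 0.43, adjusted p = 0.042). Pomp, a chaperone of core assembly, Vcp, the p97 ATPase, the proteasome-bound deubiquitinase Usp14 and the ubiquitin receptor Rad23b had positive changes of 0.64, 0.48, 0.29 and 0.29 that did not pass. Most of the remaining targets had negative changes that did not pass either. The largest were those of Gclm (-0.85), Gclc (-0.84), Mt1 (-0.69) and Srxn1 (-0.68), while Txnrd1 (0.16) and Gsta4 (0.02) were positive. In wild-type diaphragm against limb muscle 5 of the 17 were higher and 1 lower, where 8.49% of all probe sets were higher and 8.88% lower. The lower one was Rad23b (-0.62, adjusted p = 0.018), while Pomp, Vcp and Usp14 had -0.56, -0.49 and -0.36 and did not pass. Of the higher ones Gsta3 (4.01), Gclm (1.67), Mt1 (1.64) and Gclc (1.24), of glutathione and metal handling, had the largest differences, and all 4 are also expressed in liver. The 8 tested ubiquitin ligases and FoxO genes of the muscle atrophy list had 0 calls (median 0.13 in transgenic against wild-type diaphragm). Trim63, Fbxo32 and Foxo1 are on that list but were not among the genes tested, so the result does not cover them. Fbxw7 was not on the list and entered the 8 through a synonym. Of 19 autophagy and lysosome genes 2 rose in transgenic diaphragm, the co-chaperone Bag3 (0.97 ± 0.16, adjusted p = 0.0012) and its partner Hspb8 (0.67 ± 0.15, adjusted p = 0.009). Averaged over the 5 muscles Bag3 (0.70), Hspb8 (0.36) and Bnip3 (0.42), a mitophagy receptor, rose. Of 9 calpain and caspase genes 0 passed by genotype, and Capn3, the muscle calpain, was lower in wild-type diaphragm than in limb muscle (-1.08 ± 0.19, adjusted p = 0.00011).

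Age had no effect past the threshold. In 10-month against 7-month mice, averaged over the muscles, 0 of 40 members and 0% of all probe sets passed, with 4 members and 776 probe sets at an unadjusted p under 0.05. The 4 were Psmb10 (-0.27), Psmd13 (-0.22), Psmb5 (-0.21) and Psmc6 (0.17). The constitutive median was -0.05.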

How the data were processed

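The deposited values were MAS5 signal intensities of 12488 probe sets, per the submitters' processing notes, with no log taken by the authors, and with trimmed means of 1500.93 to 1501.29 that show a shared scaling. Arrays were rescaled to a trimmed mean (2%) of 500, and a pseudocount of 50 was added before the log2. Without 66 control probe sets, the 9322 that reached 100 on at least 6 arrays were tested. The model, fitted with limma 3.58.1 and statmod 1.5.0 in R 4.3.3 with an intensity trend and tested on simulated data, held muscle by genotype means and an age effect for each muscle (21 residual degrees of freedom). The Benjamini-Hochberg adjustment ran over all 9322 probe sets of a comparison. Of the 10833 probe sets with a single symbol 10817 matched the reference table by gene ID, and 0 deposited columns belonged to other samples. Arrays have no read depth, so their number limits the precision.

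The named genes were the members by symbol, those past the threshold in a comparison (at most 8 in each direction), Nfe2l1, the immune subunits and their partners, and up to 4 members of each companion list (ubiquitin, proteasome partners, p97, Nfe2l1 relatives, Nfe2l1 and Nfe2l2 targets, atrophy ligases, autophagy, calpains, antigen presentation and cell type markers). Members and lists were chosen with earlier results of these data known. Genes named outside this rule, such as those that narrowly missed the threshold, were chosen after their values were seen.

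Replicate numbers, which coincide with filled and empty scan records, did not meet the rule for pairs, so the block was an alternative, given beside the results it moves. Replicates correlated at 0.847 to 0.941 and 0 pairs were identical. Alternatives changed the pseudocount, the normalization, the filter, the blocks, the scan record, the age model, the probe set rule and hepatocyte adjustment, and left out each array.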

Additional observations from a re-analysis of the deposited data

Results flagged for a closer look

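By the brightest probe set, the genotype effect on 2 genes differed between diaphragm and the limb muscles in a test of the difference itself. Psmb1 had 1.02 (adjusted p = 0.04) and Nfe2l1 0.72 (adjusted p = 0.048) on the log2 scale, while their second probe sets had 0.24 and 0.67 without passing. Both calls were lost with a pseudocount of 16, the scan day block, 20 group means, the mean over probe sets, the hepatocyte covariate, within either set of arrays by scan record and without the 2 arrays of high Gapdh ratio, and Nfe2l1 lost its call without any one of 32 of the 36 arrays.

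Among 78 groups of 4 arrays (13 named genes in 6 groups of a muscle and genotype), 7 held an array far from the others by Dixon's criterion, where chance flags about 1 in 20. In transgenic gastrocnemius, replicate 1 at 10 months was lowest for Psmb5 (signal 2843) and for Psmb10 (411.2), replicate 2 at 7 months was lowest for Psmc6 (4514) and for Psmd12 (1060), and replicate 2 at 10 months was highest for Psmd4 (5405). In wild-type mice, gastrocnemius replicate 2 at 10 months was lowest for Psmd7 (3286), and diaphragm replicate 1 at 7 months was lowest for Psmd4 (1596).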

How the results depend on the processing

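In transgenic against wild-type diaphragm 8 passed. The count was 14 with the replicate number as a block, 5 with the scan day as a block, 3 on the 20 arrays with a filled scan record, 0 on the 16 with an empty one, 4 with 20 group means and 0 with the hepatocyte covariate, while leaving out single arrays gave 2 to 9. For the average over muscles 4 passed, against 11 with the replicate block, 0 with a random block for shared pools, 14 with the scan day block, 0 on either set of arrays by record, 2 with the mean over probe sets, 0 with the hepatocyte covariate, 0 without the diaphragm arrays, and 3 to 7 with an array left out. The count of 2 for the difference in genotype effect was 0 with a pseudocount of 16, 1 with no filter, 0 with the scan day block, either set of arrays by record, 20 means, the mean over probe sets, the hepatocyte covariate, and without the 2 arrays of high Gapdh ratio, and 0 to 2 with an array left out. In wild-type diaphragm against limb muscle 22 passed, against 6 on the arrays with an empty record and 0 with the hepatocyte covariate, and 12 to 23 with an array left out. In the F test over wild-type muscles 14 passed, against 6 and 0 on the arrays with a filled and an empty record, 7 with 20 means, 0 with the hepatocyte covariate, and 7 to 14 with an array left out. In transgenic diaphragm against limb muscle 3 passed, against 5 with the replicate block, 6 with the random block, 7 with the scan day block, 0 on either set by record, with 20 means or with the hepatocyte covariate, and 1 to 4 with an array left out. Under the hepatocyte covariate the wild-type diaphragm difference reversed for 23 of 40 members. Of these 15 had not passed before, and the 8 that had were Psma6 (0.109), Psmb2 (0.507), Psmb6 (0.142), Psmc1 (0.626), Psmc2 (0.083), Psmc3 (0.328), Psmd14 (0.36) and Psmb8 (-0.801). Replicate 1 and 2 are the arrays with a filled and an empty record. The scan day block holds the 16 arrays with an empty record as a single level, since they give no day. It therefore contains the split by replicate number and is not a separate check of it. Same-numbered arrays would count as pairs only with a correlation of their deviations above 0.1 for all 120 pairs of groups, and 117 were above it (lowest 0.0066). The hepatocyte level fully separates diaphragm from limb arrays, and the sets of arrays by record leave fewer degrees of freedom. The causes of the other moves were not tested.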
